A study of Mus musculus with 33 samples.

Results

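The comparison described here sets e-cigarette aerosol with nicotine against e-cigarette aerosol without nicotine in the frontal cortex of female mice. It covers the 10 libraries labelled Female that came from aerosol-exposed offspring, 5 with nicotine (replicates 1, 2, 3, 5 and 6) and 5 without nicotine (replicates 1 to 5), of 33 libraries in the series. They were chosen by the column titles of the count table whose air controls carry no M in their name, and all values start from the raw read counts in that table. All animals were C57BL/6 offspring of about 1 month of age. Their dams breathed aerosol from a classic tobacco flavor cartridge during gestation, and dams and pups breathed it together during lactation. The nicotine cartridges held 13 to 16 mg/mL nicotine and the others held none, so nicotine is the labelled difference between the groups. The 6 female air controls, kept in filtered air, served as a common reference. Each pup came from its own litter, and each treatment had its own exposure chamber, so chamber and treatment cannot be told apart. The paper also reports a lower average particulate level for the nicotine aerosol than for the nicotine-free one. Aerosol level and nicotine therefore cannot be told apart either. Brains were taken some days after the last exposure, so the values describe the tissue after exposure had ended. Female and male libraries were sequenced in separate runs, so sex and run cannot be told apart.

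Nicotine acts on nicotinic acetylcholine receptors, which are ion channels built from several subunits and opened by acetylcholine. In the cortex these receptors sit on axon terminals and interneurons and adjust the release of other transmitters, and the acetylcholine that normally opens them comes largely from neurons of the basal forebrain. Neuronal firing is in turn followed by short-lived transcription of immediate early genes such as Fos, Arc and the Egr family.

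Total counts per library lay between 19150562 and 24455739 (median 22288004) with nicotine, between 19684173 and 24920733 (median 23835811) without nicotine and between 22184221 and 27513174 in air. Of 23366 genes in the table, 15158 were tested. Levels are given as CPM, the counts of a gene scaled to a common library size with TMM factors, means are followed by the SD over the samples of a group, and differences are log2 differences between nicotine and no nicotine from the edgeR fit, each with its standard error (SE) or its 95% interval. The female-specific transcript Xist was at 130 to 158 CPM in the 10 exposed libraries, and 4 Y-linked genes together gave at most 3 counts in any of them. Among the defining markers of the tissue, the cortical neuron genes Tbr1 and Slc17a7 were present in all 10 libraries, with Tbr1 at 58.5 to 155 CPM and Slc17a7 at 835 to 2142 CPM. The libraries also held striatal and basal forebrain transcripts, and the summed level of 16 cortical glutamatergic markers lay between 6640 and 10200 CPM with nicotine, 5000 and 9620 CPM without nicotine and 10300 and 13500 CPM in air. In bulk tissue, fewer cells of a type and less RNA per cell cannot be told apart.

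No gene passed an adjusted p of 0.01 between nicotine and no nicotine in the quasi-likelihood test of edgeR (0 of 15158 genes, 0%), and none passed 0.05, the lowest adjusted p being 0.542. DESeq2 and limma-voom also called 0 genes at 0.01. At 0.05, DESeq2 called 1 gene, Cyp26b1 (adjusted p = 0.0187), and limma-voom called 0. At an unadjusted p below 0.05 there were 1265 genes (8.35%), 561 higher (3.70%) and 704 lower (4.64%) with nicotine, a count that was 767 without nicotine replicate 3 and 2101 without no nicotine replicate 1. The 5 samples of one group lay entirely above or below the 5 of the other for 153 genes (1.01%), 58 of them higher (0.383%) and 95 lower (0.627%) with nicotine. Randomly assigned labels would give such a lack of overlap with a probability of 0.00794 per gene. In the same fit, 669 genes (4.41%) passed between nicotine and air and 1851 (12.2%) between no nicotine and air, 2 comparisons that share the air samples with each other and the exposed samples with the one above. With the cortical marker score, the mean log2 CPM of the 16 cortical markers, as a covariate, both counts against air were 0. That score was 6.82 to 7.32 in air and 5.77 to 6.78 in the exposed libraries, without overlap. This fit therefore cannot tell exposure and cortical marker level apart.

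The differences were small in size as well as in number. The median absolute log2 difference between nicotine and no nicotine was 0.0689, with a median SE of 0.0821, whereas it was 0.103 between nicotine and air and 0.123 between no nicotine and air. An absolute log2 difference above 0.5 was found for 477 genes (3.15%) and one above 1 for 68 genes (0.449%), compared with 161 and 302 genes above 1 for nicotine and no nicotine against air. The median gene differed between the groups by 0.528 of the SD between replicates, and 250 genes differed by more than 2 SD.

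**Figure D1:**
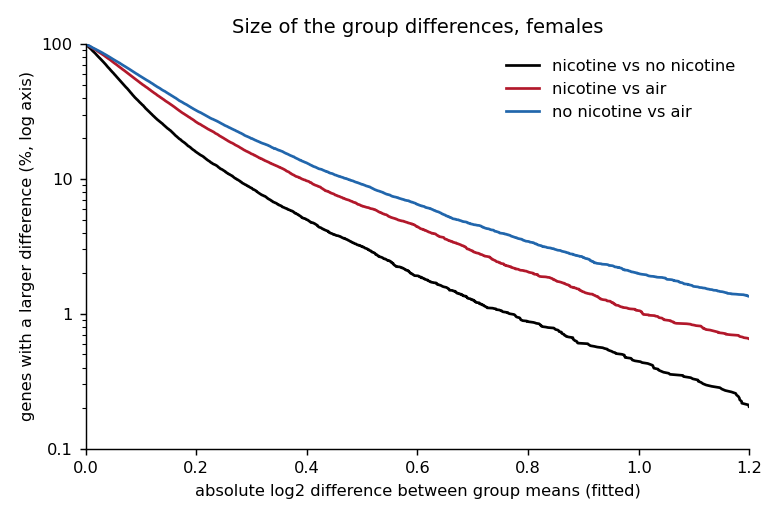
Percent of the 15158 tested genes (vertical axis, log scale) whose absolute log2 difference between group means is larger than the value on the horizontal axis, for the 3 contrasts among the female groups. The curve for nicotine against no nicotine lies lowest, with 3.15% of genes above 0.5 and 0.449% above 1.

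The data left little room for large differences in well expressed genes. The 95% interval of the log2 difference lay within 0.5 of zero on either side for 12002 of 15158 genes (79.2%) and within 1 for 95.1%. For the 2353 genes at 100 CPM and over, 95.4% of intervals lay within 0.5 and the median interval reached 0.121 to either side of the estimate. For the 7418 genes between 10 and 100 CPM, the share was 94.5%. Of 3998 genes between 1 and 10 CPM, 67.6% had an interval within 0.5. The share was only 3.38% among the 1389 genes under 1 CPM, where the median interval reached 0.626 to either side.

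The profiles of whole libraries did not separate the exposed groups cleanly. The root mean square log2 distance between a nicotine and a no nicotine library had a median of 0.345 (0.311 to 0.503), which lay between the median distance among nicotine libraries (0.372, 0.309 to 0.413) and that among no nicotine libraries (0.321, 0.280 to 0.432). All 5 no nicotine libraries had a library of their own group as nearest neighbour over all genes, but over the 1000 genes most variable within groups no nicotine replicate 1 was nearest to air replicate 1. Of the nicotine libraries, replicates 1 and 5 were nearest to each other, replicates 2 and 6 were nearest to no nicotine replicate 4, and replicate 3 was nearest to air replicate 4. No nicotine replicate 1 was the nearest neighbour of air replicate 1 and had the highest cortical marker score of its group (6.68 on the mean log2 CPM scale, against 5.77 to 6.29 in the other 4). The nicotine group ran from 6.00 to 6.78.

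The 20 genes with the smallest p at a mean of at least 1 CPM, 10 in each direction, show what the strongest leanings looked like. Because they were picked on this contrast, their values are a description, and none passed the adjusted threshold. The groups did not overlap for 14 of them, against 1.01% of all genes, a share that the choice of the genes fixes. The exact permutation test of these 14 gave 0.00794, the smallest p that 5 against 5 samples allow. The lack of overlap fixes that p, so it adds nothing to the count.

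Cyp26b1 (chr6:84521938-84543740, mm9, minus strand) encodes an enzyme that breaks down retinoic acid. It was at 15.8, 11.2, 21.6, 19.6 and 10.9 CPM in nicotine replicates 1, 2, 3, 5 and 6, and at 28.03, 33.5, 37.2, 39.7 and 22.9 CPM in no nicotine replicates 1 to 5. Every nicotine sample lay below every no nicotine sample. The log2 difference was -1.03 ± 0.212 (SE; adjusted p = 0.542), and the air mean of 29.5 CPM was near the no nicotine mean of 32.2 CPM. Cyp26b1 passed between nicotine and air (log2 -0.90, adjusted p = 0.00921) and did not pass between no nicotine and air (log2 0.13, adjusted p = 0.682). With the cortical marker score as a covariate the difference was -1.04.

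Nr2f2 (chr7:77496832-77511621, mm9, minus strand) encodes the nuclear receptor COUP-TFII, which is used by interneurons born in the caudal ganglionic eminence. It was at 26.8, 28.4, 19.2, 32.1 and 24.7 CPM with nicotine and at 38.4, 67.0, 72.6, 65.6 and 48.4 CPM without. The groups did not overlap, and the log2 difference was -1.16 ± 0.245. Here the no nicotine group was the one farther from air (34.6 ± 14.96 CPM), with a log2 of 0.76 against air, beside -0.40 for nicotine. With the cortical marker score as a covariate the difference was -0.90. Dio3, which inactivates thyroid hormone, had means of 2.08 and 4.26 CPM and a log2 difference of -1.04 ± 0.240, with overlapping groups.

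Pnoc (chr14:66019510-66044046, mm9, minus strand), the precursor of nociceptin, was at 9.41, 9.52, 6.07, 9.39 and 9.26 CPM with nicotine and at 11.7, 17.2, 14.5, 11.8 and 13.5 CPM without, with no overlap and a log2 difference of -0.65 ± 0.141. Its air mean of 9.08 CPM was close to the nicotine mean of 8.73 CPM. Against air, no nicotine passed the threshold (log2 0.60, adjusted p = 0.0040) and nicotine did not (log2 -0.05, adjusted p = 0.838). Hcrtr1, a receptor for orexins, had means of 2.57 and 4.49 CPM (log2 -0.81 ± 0.184), and its groups overlapped. Without no nicotine replicate 3 its difference was -0.64.

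Bhlhe22 (chr3:17954325-17957509, mm9, plus strand), a transcription factor of cortical projection neurons, was below air in both exposed groups and lower again with nicotine. It was at 30.1, 33, 37.1, 33.3 and 27.0 CPM with nicotine, at 44.0, 39.3, 52.5, 45.3 and 40.6 CPM without, and at 55.2 to 80.5 CPM in the 6 air libraries. No sample of one group reached into another. It passed against air in both groups, with log2 -1.12 (adjusted p = 3.81e-05) for nicotine and -0.65 (adjusted p = 0.000763) for no nicotine, and the step between them was -0.47 ± 0.108. Shisa6, an auxiliary protein of AMPA-type glutamate receptors, was at 19.4 to 23.3 CPM with nicotine and at 23.4 to 28.9 CPM without (log2 -0.37 ± 0.0792). The other 3 genes of this group were Tubb4b, a beta-tubulin (log2 -0.25), Cmbl, a hydrolase (log2 -0.36), and Mogs, the enzyme that begins N-glycan trimming (log2 -0.18), each without overlap.

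**Figure D2:**
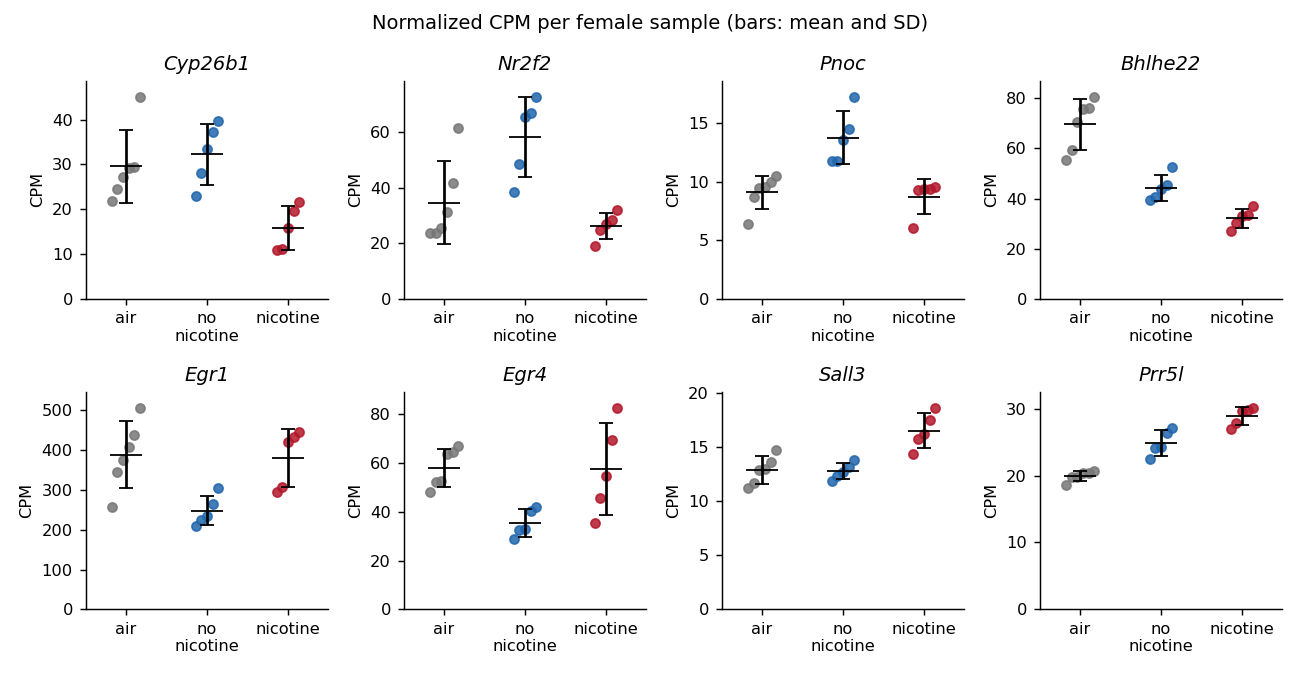
Normalized CPM per female library for 8 of the 20 ranked genes. Each point is 1 library, horizontal bars are group means and vertical bars the SD, for 6 air, 5 no nicotine and 5 nicotine libraries. Cyp26b1 is lowest with nicotine, Nr2f2 and Pnoc highest without nicotine, Bhlhe22 steps down from air, and Egr1 and Egr4 have nicotine means near the air means.

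On the higher side, the differences were smaller. Sall3, a zinc finger transcription factor, was at 17.5, 15.8, 14.4, 16.2 and 18.6 CPM with nicotine and at 12.3, 12.7, 13.1, 11.9 and 13.8 CPM without. The groups did not overlap, the log2 difference was 0.37 ± 0.0793, and air had the same mean as no nicotine (12.8 CPM). Prr5l, which encodes a partner of the mTORC2 kinase complex, rose against air in both groups, to 28.9 ± 1.38 CPM with nicotine (log2 0.54, adjusted p = 3.81e-05) and 24.9 ± 1.88 CPM without (log2 0.32, adjusted p = 0.000786), from 19.9 CPM. The step between the exposed groups was 0.22 ± 0.0528, and the lowest nicotine sample (27.0 CPM) lay just under the highest no nicotine sample (27.2 CPM). Ehhadh, an enzyme of peroxisomal fatty acid oxidation, was at 5.90 to 6.62 CPM with nicotine and at 4.51 to 5.59 CPM without (log2 0.30 ± 0.0764).

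Ccnd2, which encodes cyclin D2, was at 122 to 150 CPM against 102 to 120 CPM (log2 0.29 ± 0.0687). Sox4, a transcription factor of immature neurons, was at 38.5 to 47.9 CPM against 33.9 to 40.2 CPM (log2 0.28 ± 0.0634), with the lowest nicotine sample, replicate 6, inside the no nicotine range. Bcl6, a transcriptional repressor, had a log2 difference of 0.27, Nin, a centrosome protein, 0.22, and Arhgap23 0.17. For 7 of the 10 higher genes, among them Ccnd2, Sox4 and Bcl6, the no nicotine group lay farther from air than the nicotine group did. The same held for 5 of the 10 lower genes.

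The genes with the largest differences in size varied widely between animals. Hkdc1, a hexokinase domain gene, had 1 high sample without nicotine, replicate 1 (5.13 CPM, others 0.496 to 1.28 CPM), was at 0.526 to 9.03 CPM with nicotine and had a log2 of 1.11. Sp8, a transcription factor, was at 2.39 to 16.2 CPM against 2.32 to 5.30 CPM (log2 1.18), Thbs4, a thrombospondin, had a log2 of 1.06 and Ly6g6e 1.00. In the other direction, Ngb, the oxygen-binding protein neuroglobin, was at 4.76 to 13.1 CPM against 8.31 to 31.5 CPM (log2 -1.18), followed after Nr2f2 by Prlr (-1.13), Ccdc42 (-1.11) and Vgll3 (-1.08). All of these groups but Nr2f2 overlapped. With the cortical marker score as a covariate, the log2 was 0.42 for Hkdc1 and -0.07 for Prlr. Leaving out 1 library moved Hkdc1 to between 0.50 (without nicotine replicate 3) and 2.065 (without no nicotine replicate 1).

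All 14 immediate early genes tested were higher with nicotine than without, with a median log2 difference of 0.51 beside -0.000257 over all genes, and none passed the adjusted threshold. At an unadjusted p below 0.05 there were 6 of 14, namely Egr1, Egr2, Egr4, Arc, Nr4a1 and Fosl2, where 3.70% of all genes were higher at that level. The list was chosen with earlier results of these data known, so this count is a description. No member was free of overlap between the groups. Against air the list's median log2 was 0.03 for nicotine and -0.44 for no nicotine, and these members are co-regulated, so they are not independent of each other.

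Egr1, a zinc finger transcription factor induced by neuronal activity, has an annotated gene, Gm17507, on the opposite strand, and reads of the pair may not have been told apart. It was at 306, 444, 419, 294 and 432 CPM with nicotine and at 210, 304, 265, 235 and 225 CPM without. Only the lowest nicotine sample, replicate 5, fell under the highest no nicotine sample, replicate 2. The log2 difference was 0.61 ± 0.157. Against air (388 CPM), no nicotine passed the threshold (log2 -0.65, adjusted p = 0.0055) and nicotine did not (log2 -0.03, adjusted p = 0.911). Egr4 (chr6:85461125-85463583, mm9, minus strand), of the same family, was at 45.6, 82.4, 69.1, 35.4 and 54.5 CPM with nicotine and 28.7, 42.0, 32.4, 32.9 and 40.3 CPM without (log2 0.70 ± 0.178).

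Arc (chr15:74499513-74503000, mm9), which encodes a postsynaptic protein that controls AMPA receptor uptake, was at 266, 226, 266, 44.3 and 253 CPM with nicotine and at 109, 122.8, 60.9, 108 and 131 CPM without. Nicotine replicates 1, 2, 3 and 6 stood above all no nicotine samples, and replicate 5 stood below all of them (log2 0.99, interval 0.12 to 1.86). Nr4a1, an orphan nuclear receptor, was at 40.8 CPM in nicotine replicate 5, inside the no nicotine range of 31.5 to 87.3 CPM, and at 111 to 124 CPM in the other 4 nicotine samples, above it (log2 0.70). Fos was at 15.8 CPM in nicotine replicate 5, 45.4 to 81.8 CPM in the others and 26.3 to 51.6 CPM without (log2 0.56, interval -0.24 to 1.35). Egr3 had no nicotine replicates 1 and 3, at 65.5 and 49.7 CPM, inside the nicotine range of 44.0 to 92.8 CPM and a log2 of 0.30. The mean log2 CPM of the list was 4.54 in nicotine replicate 5, 5.59 to 6.01 in the other 4 nicotine libraries and 4.78 to 5.43 without nicotine. Without replicate 5 the median difference of the list was 0.67, without nicotine replicate 2 it was 0.41, and with the cortical marker score as a covariate it was 0.60.

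In the samples labelled male, 4 of the 14 immediate early genes were higher with nicotine, with a median log2 difference of -0.14. The difference between the 2 tables had its lowest adjusted p for this list at Fosl2 (0.165), so it was not shown to differ for any member.

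Transcription of immediate early genes is known to use cAMP response elements, which bind the factor CREB, and CArG boxes, which bind serum response factor. Of the 6 members above, Egr4, Nr4a1 and Fosl2 have a single start listed in the RefSeq promoter table used here (GRCm38.p6, a later build than the mm9 of the counts), so the 250 bases before their starts are shown to let the reader see how far these sequences differ. Capitals mark the element's core TGACG on either strand (CGTCA on the strand shown), and 17.8% of 32851 promoters of this length hold it. The full element TGACGTCA, which contains the core on both strands, is in 1.55% and the CArG box in 1.47%, and neither is in these 3 windows. Egr4 lies at chr6:85513590-85513839 on the minus strand with 2 cores, Nr4a1 at chr15:101266596-101266845 on the plus strand with 4, and Fosl2 at chr5:32136222-32136471 on the plus strand with 0.
Egr4: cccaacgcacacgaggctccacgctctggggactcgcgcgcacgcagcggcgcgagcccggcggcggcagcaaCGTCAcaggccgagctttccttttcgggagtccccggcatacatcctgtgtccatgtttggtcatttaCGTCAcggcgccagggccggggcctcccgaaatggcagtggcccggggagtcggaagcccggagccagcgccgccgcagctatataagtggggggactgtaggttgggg
Nr4a1: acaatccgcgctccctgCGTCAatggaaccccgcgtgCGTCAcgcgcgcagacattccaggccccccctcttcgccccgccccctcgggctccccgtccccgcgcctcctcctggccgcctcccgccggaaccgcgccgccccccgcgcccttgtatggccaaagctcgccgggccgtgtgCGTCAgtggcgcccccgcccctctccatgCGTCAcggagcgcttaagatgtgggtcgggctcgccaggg
Fosl2: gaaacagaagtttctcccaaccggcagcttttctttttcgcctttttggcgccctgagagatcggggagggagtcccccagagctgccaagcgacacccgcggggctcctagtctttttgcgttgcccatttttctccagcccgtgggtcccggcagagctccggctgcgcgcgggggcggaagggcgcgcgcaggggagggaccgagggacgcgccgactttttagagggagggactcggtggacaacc

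Nicotinic receptor subunits, the targets of nicotine, gave differences of both signs. Of 16 subunit genes in the table, 12 were tested, 4 were higher and 8 lower with nicotine, and none passed. The median log2 difference was -0.07, and the summed level was 131 to 153 CPM with nicotine, 121 to 150 CPM without and 130 to 154 CPM in air. That median was -0.01 without no nicotine replicate 3, -0.13 without no nicotine replicate 1 and 0.01 with the replicate number as a block. Chrna4 and Chrnb2 encode the subunits of the main high-affinity nicotine receptor of the brain. Chrna4 (chr2:180753085-180778251, mm9, minus strand) was at 50.7, 41.3, 49.3, 45.3 and 34.3 CPM with nicotine and at 37.7, 38.2, 35.7, 38.9 and 38.3 CPM without, so 4 nicotine samples were above the no nicotine range and replicate 6 was below it (log2 0.23, interval 0.02 to 0.43, unadjusted p = 0.0323). Chrnb2 was at 76.3 ± 8.78 and 80.9 ± 10.4 CPM (log2 -0.09, interval -0.26 to 0.09). Chrna7, which forms the receptor that binds alpha-bungarotoxin, was at 12.1 ± 1.38 and 12.4 ± 1.28 CPM (log2 -0.05, interval -0.25 to 0.16).

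For Chrnb2 and Chrna7 the intervals thus leave out a log2 difference of 0.5 in either direction. That held for 5 of the 12 tested subunits, beside 79.2% of all genes, and the intervals of the rest reached 0.5 or beyond. Chrna3 was at 0.94 to 1.71 CPM with nicotine and 1.32 to 2.75 CPM without (log2 -0.62, interval -1.12 to -0.13, unadjusted p = 0.0163). The rarer subunits were measured loosely. Chrna6, for example, was at 0.329 and 0.351 CPM and its interval ran from -1.41 to 1.202. The subunits Chrna9, Chrnd, Chrne and Chrng, of which the last 3 belong to muscle receptors, had 0 to 19 counts in all 16 female libraries and were not tested.

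**Figure D3:**
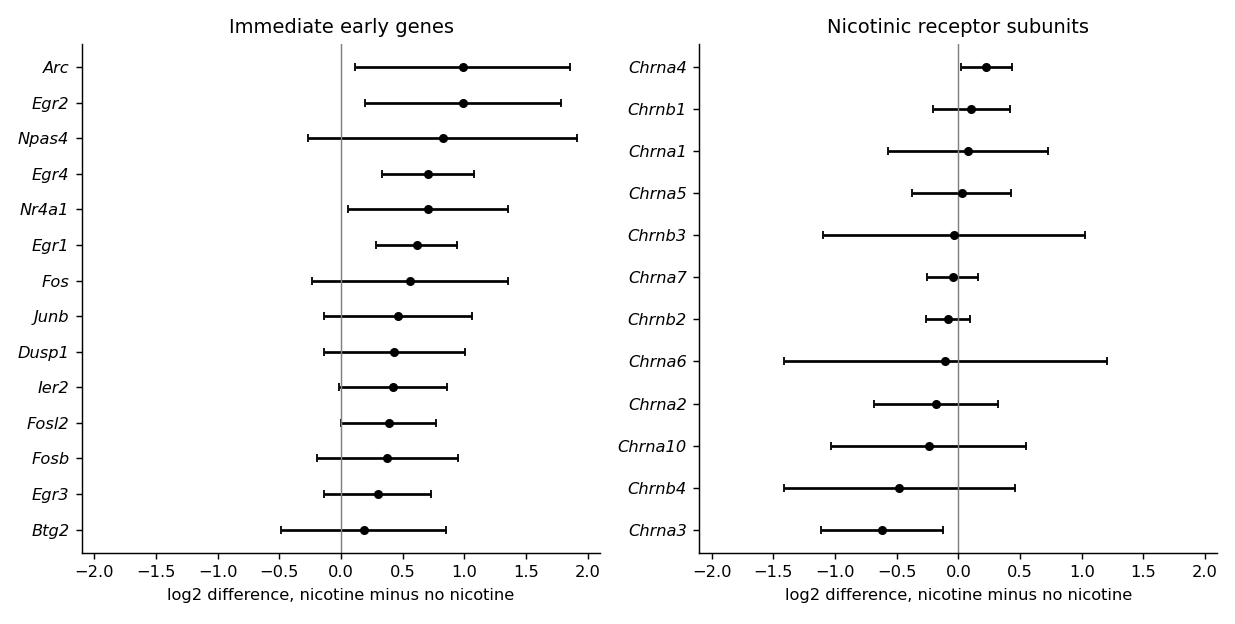
Log2 difference between nicotine and no nicotine in females for the 14 immediate early genes and the 12 tested nicotinic receptor subunits. Points are estimates of the edgeR fit and bars their 95% intervals. All 14 immediate early genes lie to the right of zero, with Arc and Egr2 highest at 0.99, and the nicotinic subunits lie on both sides, from -0.62 for Chrna3 to 0.23 for Chrna4.

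Proteins that assist or restrain nicotinic receptors gave 4 higher and 5 lower of 9 tested genes (median log2 -0.03), with 8 of 9 intervals within 0.5. The exception was Lypd1, a member of the lynx family of receptor modulators, at 25.4, 27.4, 16.3, 29.8 and 18.9 CPM with nicotine and 24.1, 44.5, 46.1, 44.2 and 35.1 CPM without (log2 -0.72 ± 0.224, unadjusted p = 0.0049, adjusted p = 0.571). No nicotine replicate 1 alone lay inside the nicotine range. Lynx1 itself had a log2 of 0.15 and the chaperone Ric3 -0.04. Of the 5 muscarinic receptors, the other receptor class for acetylcholine, Chrm5 was lower (1.30 against 2.29 CPM, log2 -0.81, unadjusted p = 0.0168) and Chrm3 higher (34.3 against 28.8 CPM, log2 0.25, unadjusted p = 0.0844).

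The 10 cholinergic neuron markers were all lower with nicotine than without (median log2 -0.41), with 0 of 10 at an unadjusted p below 0.05 and overlapping groups throughout. Chat, the enzyme that makes acetylcholine, was at 14.3, 17.97, 7.15, 12.6 and 14.8 CPM with nicotine and 10.4, 19.5, 24.1, 14.0 and 20.98 CPM without (log2 -0.42, interval -0.97 to 0.14). Ngfr, the low-affinity neurotrophin receptor of basal forebrain neurons, had a log2 of -0.75 with an interval of -1.60 to 0.10. Both groups were above air in this list, with a median log2 of 1.5 for nicotine and 1.98 for no nicotine. The list's median was -0.55 without no nicotine replicate 1, -0.27 without nicotine replicate 3 and -0.05 with the cortical marker score as a covariate. Nicotine replicate 3 and no nicotine replicate 1, the lowest in Chat of their groups, were the highest in cortical markers.

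Of the genes that break down acetylcholine or nicotine, 5 of 12 were tested and all 5 were lower, with a median log2 of -0.25. Ache, the acetylcholinesterase, had a log2 of -0.25 and Fmo1, a flavin monooxygenase, -0.26 (unadjusted p = 0.0356). The value of Ache was -0.13 without nicotine replicate 3 and 0.01 with the cortical marker score as a covariate. Cyp2a5, the mouse enzyme that oxidises nicotine, did not reach the filter. Genes of dopamine synthesis and reception, a transmitter system that nicotine acts on, were 7 higher and 5 lower of 12 (median log2 0.02), with 0 at an unadjusted p below 0.05. The receptors Drd1a and Drd2 had log2 differences of 0.20 and 0.30.

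Genes of transmitter release were 15 higher and 9 lower of 24 (median log2 0.04), and 22 of the 24 intervals lay within 0.5. Syn2, a synaptic vesicle protein, was lower without overlap (595 ± 30.5 against 701 ± 38 CPM, log2 -0.24, unadjusted p = 0.0025). Among 15 ionotropic glutamate receptor genes, 3 were lower at an unadjusted p below 0.05, namely Grin3a (log2 -0.33), Grik1 (log2 -0.34) and Grin2d (log2 -0.20), and 0 were higher, where 4.64% of all genes were lower and 3.70% higher at that level. Among 13 GABA-A receptor subunits, 2 were lower at that level, Gabra2 (log2 -0.17, unadjusted p = 0.0041) and Gabra3 (log2 -0.11, unadjusted p = 0.0334). Another 2 were higher, Gabra4 (log2 0.22, unadjusted p = 0.0430) and Gabrd, a subunit of receptors outside the synapse (log2 0.36, unadjusted p = 0.0339). Gabre had the largest difference of this list, -1.03, with an interval of -2.31 to 0.24. The medians of these receptor lists were 0.06 and 0.00324.

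Among the cell type lists, several of glia and vessels had every interval within 0.5. These were all 12 microglial genes (median log2 -0.01), all 12 endothelial genes (0.03), all 12 myelin genes (0.07) and all 10 genes of oligodendrocyte precursors (-0.07). The astrocyte list had 10 of 12. The share was 79.2% over all genes, 94.5% for genes between 10 and 100 CPM and 95.4% at 100 CPM and over. All 12 myelin genes were higher with nicotine, led by Opalin (log2 0.18) and Mbp (0.16), and 0 of them reached an unadjusted p below 0.05. Against air, the myelin list had medians of 0.69 for nicotine and 0.61 for no nicotine. Between the exposed groups its median was 0.02 without no nicotine replicate 1 and 0.17 without no nicotine replicate 2. Gfap, the intermediate filament of astrocytes, was lower without overlap (257 ± 37.03 against 340 ± 21.7 CPM, log2 -0.41, unadjusted p = 0.0142), while the astrocyte list had a median of -0.03.

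The neuronal and regional lists were measured less tightly. Of 16 cortical glutamatergic markers, 14 were higher with nicotine (median log2 0.19), and the 2 lower ones were Neurod1 (-0.38, unadjusted p = 0.0220) and Rasgrf2 (-0.15). Their medians against air were -0.63 for nicotine and -0.88 for no nicotine. Of 14 striatal markers 13 were higher (median 0.27), including Ppp1r1b, the dopamine-regulated phosphatase inhibitor DARPP-32 (598 ± 75.1 against 484 ± 44.8 CPM, log2 0.30), with 0 at an unadjusted p below 0.05. The GABAergic list had a median of -0.09, the thalamic list -0.13 with Slc17a6 at -0.49 and Ramp3 at 0.53, and the hypothalamic list -0.31. Leaving out 1 library moved several of these medians. The cortical median was 0.09 without nicotine replicate 3 and 0.31 without no nicotine replicate 1, the thalamic median -0.08 and -0.21 without the same libraries, and the hypothalamic median -0.09 without no nicotine replicate 2 and -0.50 without no nicotine replicate 5.

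Markers of the choroid plexus, which lies in the ventricles, were all lower with nicotine (10 of 10, median log2 -0.94), and 1 library decided the size. Ttr, the plexus transthyretin, was at 219 CPM in no nicotine replicate 3, at 0.53 to 5.79 CPM in the other no nicotine libraries and at 0.32 to 5.56 CPM with nicotine. Without that library the list's median was -0.20. The summed level was 23.6 to 51.6 CPM with nicotine, 26.0 to 314 CPM without and 18.6 to 350 CPM in air. The meningeal list had a median of -0.22 and the olfactory list 0.20, led by Sp8. Leaving out 1 library moved the meningeal median to between -0.39 (without nicotine replicate 5) and -0.11 (without nicotine replicate 2), and the olfactory median to between 0.11 (without nicotine replicate 1) and 0.37 (without no nicotine replicate 2). Of 6 red cell genes listed, only Alas2 was tested (12.2 against 9.85 CPM, log2 0.31), and nicotine replicate 5 (21.5 CPM, others 8.29 to 11.4 CPM) decided its value, which was 0.0077 without it.

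**Figure D4:**
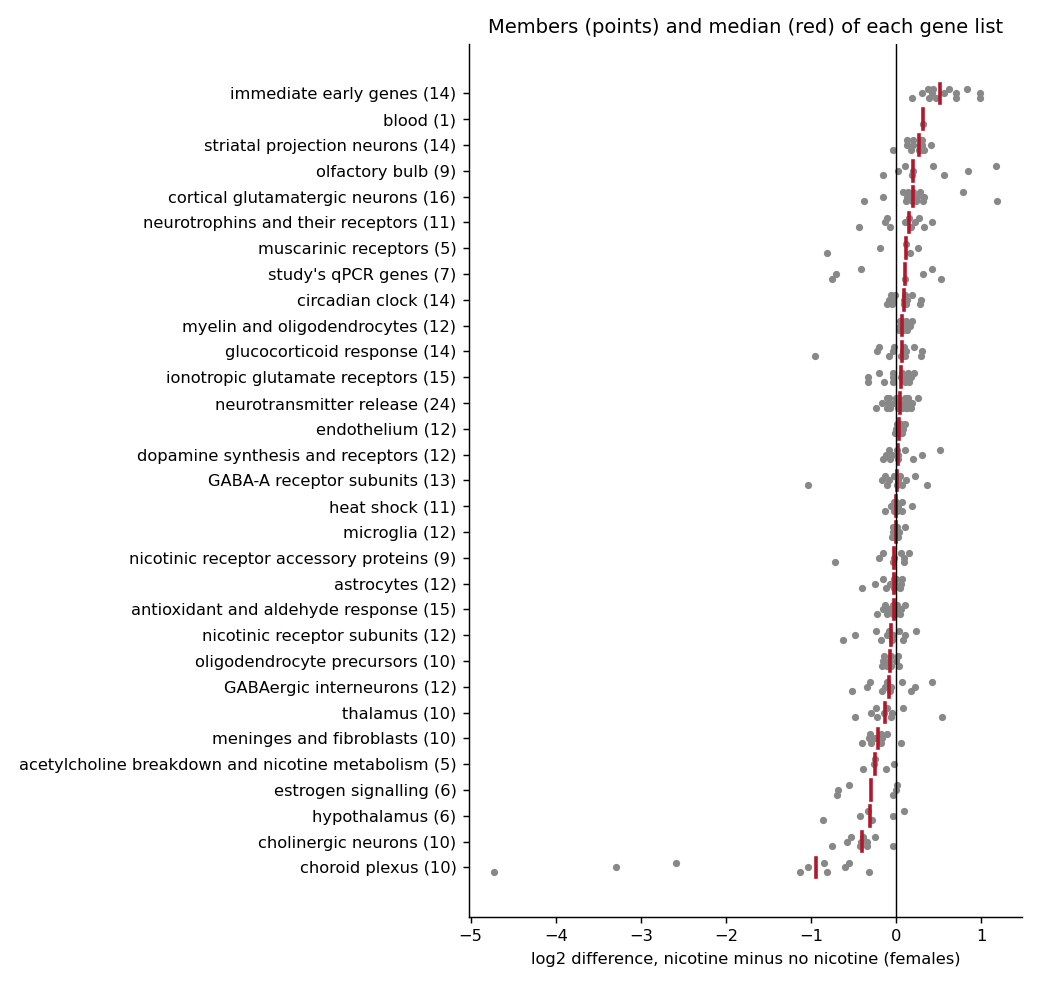
Log2 difference between nicotine and no nicotine in females for every tested member (grey points) and the median (red line) of 31 gene lists, with the number of tested members in brackets. Immediate early genes have the highest median of the lists with more than 1 tested member, 0.51, choroid plexus the lowest at -0.94, and microglia, heat shock and GABA-A receptor lists lie near zero.

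Antioxidant and aldehyde genes were 5 higher and 10 lower of 15 (median log2 -0.03), 14 of 15 with intervals within 0.5. Slc7a11, the cystine transporter, had a log2 of -0.23 and Nqo1, a quinone reductase, -0.15. Heat shock genes had a median of -0.00320 and clock genes 0.09, with Npas2 at 0.28 (unadjusted p = 0.0489). The clock median was 0.01 without nicotine replicate 6. Npas2 was at 0.16 without nicotine replicate 3 and at 0.12 with the cortical marker score as a covariate. The glucocorticoid list had a median of 0.06, with the cell cycle inhibitor Cdkn1a at 0.30 (unadjusted p = 0.0148) and Plin4, a lipid droplet protein, at -0.95 (unadjusted p = 0.000654). Plin4 was at 0.315 to 0.566 CPM with nicotine and at 0.638 to 0.9497 CPM without, so its groups did not overlap. Of 6 estrogen signalling genes tested, 5 were lower, among them the receptor Esr1 (3.45 ± 1.17 against 5.53 ± 2.43 CPM, log2 -0.68, unadjusted p = 0.0291), and their median was -0.30. That median was -0.07 without no nicotine replicate 4. Among 11 genes of neurotrophic factors and receptors, Gfra1, a receptor for GDNF, was higher (log2 0.18, unadjusted p = 0.0150).

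Of the 7 genes that the study followed by qPCR, 4 lay higher with nicotine and 3 lower, and none reached an unadjusted p below 0.05. Bdnf, a neurotrophin, was at 24.8 ± 4.33 CPM with nicotine and 23.0 ± 2.85 CPM without (log2 0.11, interval -0.14 to 0.35), with air at 42.7 CPM. Tbr1 was at 124 ± 17.1 and 101 ± 37.9 CPM (log2 0.31, 0.17 without no nicotine replicate 2 and 0.53 without no nicotine replicate 1). Adra1d, an alpha-1 adrenergic receptor, had a log2 of 0.53 (0.16 without nicotine replicate 3 and 0.89 without no nicotine replicate 1), Gdnf 0.42 and the neuropeptide Gal -0.71, each with an interval that includes zero. With the cortical marker score as a covariate, the log2 was 0.14 for Tbr1, -0.02 for Adra1d, 0.63 for Gdnf and -0.10 for Gal.

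The same contrast in the table labelled Male, which shares no sample with the female one, had 31 genes of 15293 past an adjusted p of 0.01 (0.203%), 27 higher and 4 lower with nicotine. 1 of its nicotine libraries (replicate 21) had Xist above 100 CPM, against its label, and without it 4 genes passed. This drop was not particular to that library. The count was also 4 without nicotine replicate 16 or 17, and 0 to 239 over all fits that left out 1 exposed library. A fit to the 2 exposed groups alone called 0 genes there, and DESeq2 called 456. In females 22 of the 31 genes had the same sign, and the unadjusted p of 1 gene, Nkain4, was under 0.05. Their median absolute log2 difference was 0.413 in the samples labelled male, where they were chosen, and 0.0552 in females. A direct edgeR test of the difference between the tables passed an adjusted p of 0.01 for 0 of the 31 and 0.05 for 2. For 27 of the 31 the male value lay outside the female 95% interval, which leaves out the error of the male value. Lct, for instance, was at 2.82 against 0.889 CPM in the samples labelled male (log2 1.67) and at 2.02 against 2.495 CPM in females (log2 -0.29). Bmp3, a bone morphogenetic protein, had a log2 of 1.32 there and -0.06 in females, and Nrn1, which promotes neurite growth, 0.90 and 0.02. Olfm1, a secreted neuronal protein, had 0.62 and 0.01.

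**Figure D5:**
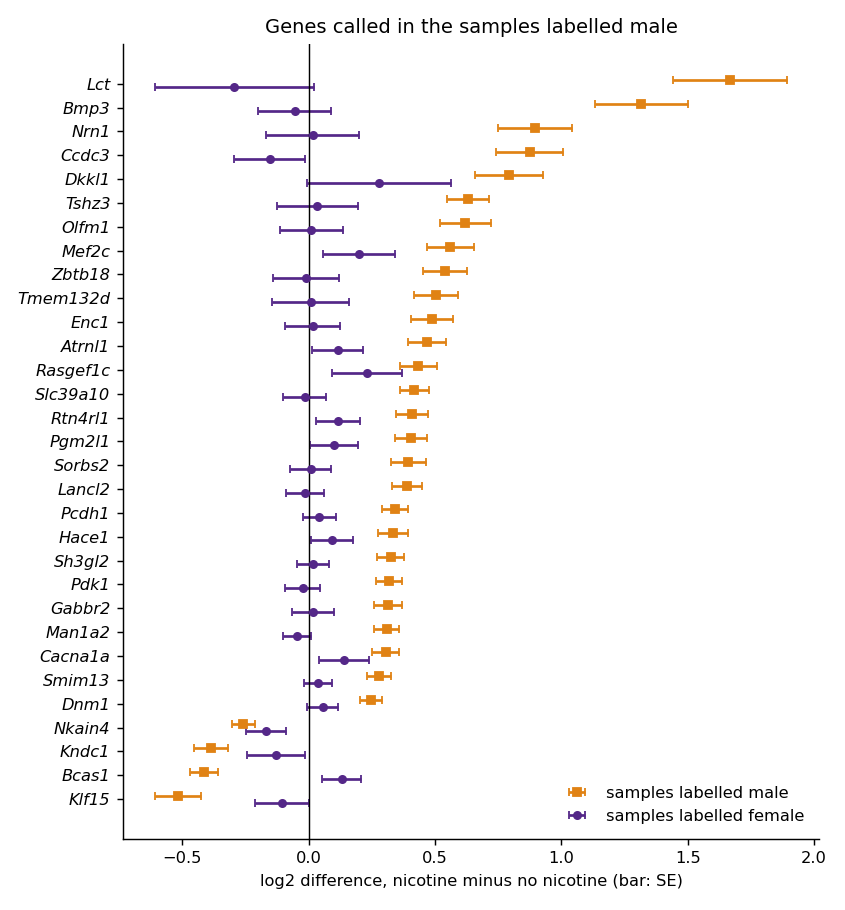
Log2 difference between nicotine and no nicotine for the 31 genes called in the samples labelled male. Squares are the estimates in those samples, which chose the genes, circles the estimates in females, and bars the SE. The squares run from -0.52 to 1.67, and the female values lie mostly near zero.

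Tested directly, the difference in the nicotine contrast between the tables passed an adjusted p of 0.01 for 0 of 15105 genes in edgeR (1882 at an unadjusted p below 0.05) and for 23 genes in DESeq2. At 0.05, edgeR called Bcas1, a myelin-associated gene, and Bmp3 (both adjusted p = 0.0284). Bcas1 was at 185 against 169 CPM in females (log2 0.13) and at 161 against 214 CPM in the samples labelled male (log2 -0.41). Of the 20 ranked female genes, 16 had the opposite sign in the samples labelled male, and 0 had an adjusted p below 0.05 for the difference. The lowest was that of Bhlhe22 (adjusted p = 0.0514), which was lower with nicotine in females (log2 -0.47) and had a log2 of 0.77 in the samples labelled male. Across the 15105 genes, 53.2% had the same sign in both tables and the correlation of the differences was weak (Pearson r = 0.155, Spearman coefficient 0.0802), with genes not being independent replicates.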

How the data were processed

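RNA-Seq was measured in frontal cortex of 33 mice, and the female comparisons used 16 libraries (6 air, 5 nicotine, 5 no nicotine). The authors deposited raw read counts per gene, made from single reads mapped to the mm9 mouse transcriptome with Bowtie, with PCR duplicates taken out by SAMtools and reads assigned to genes by HTSeq (tools also named in the submitters' processing notes). The strand setting and annotation release are not given in the sources used here. A deposited table of the same counts scaled by size factors was not used. All 33 samples were matched to count columns by name, and 1 column was not used. The study left out 1 sample per sex as an outlier before analysis.

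Genes whose CPM summed to at least 5 over the 16 female libraries were kept. TMM factors scaled the libraries, and the robust quasi-likelihood test was that of edgeR 4.0.16 (R 4.3.3), with 3 groups in 1 fit, no covariate, Benjamini-Hochberg adjustment over all genes tested and a threshold of 0.01. The study had used DESeq2, which was run as an alternative (1.42.0), as were limma-voom (limma 3.58.1), other normalizations and filters, a covariate, a block and leaving out samples. Single genes were compared by exact two-sided permutation tests on log2 CPM with a prior count of 1. The tests were tried on simulated data. The tables labelled Female and Male were fitted separately, and their difference in 1 fit of 6 groups.

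Genes named are the 10 per direction with the smallest p at a mean of at least 1 CPM, the 5 per direction with the largest difference and at least 10 counts in every sample, the study's qPCR genes, the nicotinic subunits, leading members of each list and genes called in males; others were named after their values were seen. A gene the rule names is not reported here. The members and lists were chosen with earlier results of these data known, and lists got no set test. Replicates were separate offspring, 1 per litter. Count totals set the precision given with each value. Replicates of a group differed by more than counting noise (chi-square per degree of freedom 4.55 to 31.7 over 20 pairs). Python 3.11.15, pandas 2.3.3 and matplotlib 3.10.9 were used.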

Additional observations from a re-analysis of the deposited data

Results flagged for a closer look

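Of 156 groups of 5 values examined, 7 held a sample far from the others by Dixon's 95% limit, and chance gives about 1 in 20. No nicotine replicate 1 accounted for 4 of them. It was high in Hkdc1 (5.13 CPM, others 0.496 to 1.28), Adra1d (13.6 CPM, others 4.88 to 6.58) and Chrna5 (2.61 CPM, others 1.23 to 1.53), and low in the mean log2 CPM of the clock genes (5.90, others 5.99 to 6.02). Its cortical marker score was also the highest of its group, and its part in these values was not tested. In Pnoc, nicotine replicate 3 was low (6.07 CPM, others 9.26 to 9.52). In Ly6g6e, nicotine replicate 6 (1.13 CPM, others 2.85 to 3.33) and no nicotine replicate 3 (0.624 CPM, others 1.37 to 1.61) were both low.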

How the results depend on the processing

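Between nicotine and no nicotine in females, 0 genes passed 0.01 under all 19 alternatives (lowest adjusted p 0.0187 to 0.903). Leaving out each exposed replicate gave 0 to 0 genes there and moved the count at an unadjusted p below 0.05 from 1265 to between 767 (without nicotine replicate 3) and 2101 (without no nicotine replicate 1), with 779 without no nicotine replicate 3. In these fits the median absolute difference lay between 0.0622 and 0.0817 and the share of genes within 0.5 between 76.7 and 79.3%. With no filter on low counts they were 0.0934 and 62.8%, and with a stricter filter 0.0635 and 85.7%. Against air, nicotine went from 669 genes to 1319 with DESeq2, 1012 with limma-voom and 0 with the cortical score in the model, and to between 249 and 924 without 1 exposed replicate (299, 249 and 281 without nicotine replicates 1, 2 and 6). No nicotine went from 1851 to 0 with that covariate and to between 853 and 2479 without 1 replicate (853, 869 and 1110 without replicates 2, 3 and 5). In the samples labelled male, 31 became 456 with DESeq2, 0 with only the 2 exposed groups and 0 to 239 without 1 sample. The difference between the tables, 0 genes, became 23 with DESeq2 and 0 to 25 without 1 sample (1 without female nicotine replicate 5, 25 and 5 without male nicotine replicate 19 and male no nicotine replicate 7).

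With the replicate number as a block, 0 genes passed between nicotine and no nicotine, 126 between nicotine and air and 612 between no nicotine and air, and the median of the immediate early genes was 0.30. The numbers did not pair the samples: for numbers 1, 2, 3 and 5 the deviations of nicotine and no nicotine samples correlated at -0.135, 0.249, -0.273 and 0.0738, and 2 of 4 correlated best with their own number.

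Of 124 named genes, 105 kept their sign under every alternative run, and of 31 lists 21 kept the sign of their median. Intervals were widest for genes under 1 CPM, such as Chrna6. The causes of these shifts were not tested.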

Other observations

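The 95% interval lay wholly beyond 0.5 for 9 genes, 8 of them lower with nicotine and 5 of them under 1 CPM. These genes were chosen after their values were seen. Besides Cyp26b1, Nr2f2 and Dio3 they include Cbln3, a gene of cerebellar granule neurons, at 5.13 CPM in no nicotine replicate 1, 0.578 to 2.27 CPM in the other 4 and 0.135 to 1.10 CPM with nicotine (log2 -2.03). Scgb1a1, a secretory protein of airway club cells, was at 4.48 CPM in no nicotine replicate 1 and at most 0.283 CPM in every other exposed library. Cldn3, a tight junction protein, was at 0.0449 to 0.336 CPM with nicotine and 0.285 to 0.786 CPM without (log2 -1.83). The only higher gene was 3110099E03Rik, at 0.364 to 0.944 CPM against 0.156 to 0.455 CPM (log2 1.30). The source of these transcripts in the libraries was not tested.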
